A study of Arabidopsis thaliana with 4 samples.

Results

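Class III HD-ZIP genes encode transcription factors with a homeodomain, a leucine zipper and a START domain. The 9 genes described here are the 5 class III HD-ZIP genes of Arabidopsis thaliana, which are PHB (AT2G34710), PHV (AT1G30490), REV (AT5G60690), ATHB15 (AT1G52150) and ATHB8 (AT4G32880), the little zipper genes ZPR1 (AT2G45450) and ZPR3 (AT3G52770), and the microRNA precursor genes MIR165a (AT1G01183) and MIR166g (AT5G63715). They were chosen by gene identifier out of 27880 rows in each count table, with earlier results of these data known. All 9 had a row and enough counts to be tested. RNA was taken from globular embryos of 32 to 64 cells, in 2 libraries from the se-1 (serrate-1) mutant and 2 libraries from the wild type, which the series calls biological replicates. Both genotypes were in the Col (Columbia) background, and the plants grew at 22 °C in days of 16 h light. The labels also give at least 4 days of cold for every library. The mutated gene encodes SERRATE (SE), a zinc-finger partner of the nuclease DCL1 in the processing of microRNA primary transcripts, and the se-1 allele keeps part of the gene's function. Each library had between 18580516 and 20882004 counts.

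In plants, class III HD-ZIP proteins mark the upper (adaxial) side of lateral organs, the shoot meristem and the vascular tissue, and in the embryo they promote apical fate. The microRNAs miR165 and miR166 pair with a site in all of their mRNAs and remove them from the lower (abaxial) side and from the periphery of the embryo. Little zipper (ZPR) proteins carry a leucine zipper but no DNA-binding domain. They join class III HD-ZIP proteins in dimers that cannot bind DNA, and class III HD-ZIP proteins in turn activate ZPR genes.

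On the TAIR10.1 assembly, PHB spans chr2:14639323-14644355 and has 17 exons, PHV spans chr1:10796124-10801093 and has 18, and REV spans chr5:24396981-24402195 and has 18. ATHB15 spans chr1:19409688-19414764 with 17 exons in its longest transcript of 3, and ATHB8 spans chr4:15863339-15868650 with 18. ZPR1 (chr2:18733275-18734341) and ZPR3 (chr3:19557516-19559323) are small genes of 2 exons with transcripts of 967 nt and 1004 nt, against 3079 nt to 3618 nt for the class III HD-ZIP transcripts.

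The sequences that connect these genes are the mature microRNAs and the sites they pair with, taken from the RefSeq annotation and genome (build TAIR10.1). The 9 annotated MIR165 and MIR166 loci give 2 distinct mature sequences of 21 nt, which share the seed (bases 2 to 8, in capitals). MIR165a lies at chr1:78927-79037 on the minus strand and MIR166g at chr5:25504798-25504919 on the plus strand. Counted from the 5′ end of the mature microRNA, the substitution from miR166g to miR165a is U17C, outside the seed. The 2 MIR165 loci carry the first sequence below and the 7 MIR166 loci the second.
miR165a-3p: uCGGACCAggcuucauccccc
miR166g: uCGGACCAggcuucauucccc

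The precursors of MIR165a (111 nt) and MIR166g (122 nt) are shown as annotated in RefSeq, because counts of these genes are reported below. The mature microRNA is in capitals near the 3′ end of each hairpin. In RefSeq both genes hold the hairpin alone. The annotation release used for the counts is not given, so whether their rows counted the hairpin alone is not known. The lengths used in the length correction are the RefSeq ones.
MIR165a: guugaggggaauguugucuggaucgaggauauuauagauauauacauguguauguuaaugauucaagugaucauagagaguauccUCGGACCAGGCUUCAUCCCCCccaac
MIR166g: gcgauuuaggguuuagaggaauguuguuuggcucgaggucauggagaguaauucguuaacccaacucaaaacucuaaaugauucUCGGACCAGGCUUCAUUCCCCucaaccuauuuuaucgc

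All 5 class III HD-ZIP transcripts held a site for these microRNAs in the coding sequence, and the 5 sites fell into 3 sequences, in which capitals mark the bases that face the seed. In each gene the site is split by an intron, with 11 bases in one exon and 10 in the next, so that the genome itself does not hold it in 1 run. The spans that include the intron are chr2:14642530-14642666 for PHB, chr1:10799330-10799445 for PHV, chr5:24398787-24398898 for REV, chr1:19412976-19413085 for ATHB15 and chr4:15866872-15866974 for ATHB8. REV is on the plus strand and the others are on the minus strand.
PHB and PHV: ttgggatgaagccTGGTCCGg
REV and ATHB8: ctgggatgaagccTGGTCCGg
ATHB15: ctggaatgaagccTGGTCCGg

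Against miR165 the sites of PHB, PHV, REV and ATHB8 had 2 mismatches and 1 G:U pair, and that of ATHB15 had 3 mismatches and 1 G:U pair. Against miR166 the first 4 had 2 mismatches and 2 G:U pairs, and ATHB15 had 2 mismatches and 1 G:U pair. With a mismatch scored 1 and a G:U pair 0.5, the better of both scores was 2.5 for all 5 genes. Of 38074 loci searched, over 59685 annotated transcripts and without gaps, no other locus scored 2.5 or less. PHB and PHV thus share a site letter for letter, as do REV and ATHB8. Within each of these pairs the genes differed in level and in fitted fold change. Neither the difference in fold change nor the part of the site in it was tested.

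The transcript of SE itself was present in all libraries. It stood at 69.4 and 71.1 CPM (counts scaled to a common library total, with TMM factors) in se-1 and at 96.7 and 98.6 CPM in wild type, a log2 fold change of -0.48 (SE of the fold change 0.079, edgeR adjusted p = 2.92e-05), and with the length correction described below -0.19 (adjusted p = 0.0421). The allele is not known to remove the transcript, so this level does not check the labels. Of 18714 genes tested with the edgeR quasi-likelihood test, 72.3% passed an adjusted p of 0.05, 36.2% higher and 36% lower in se-1, so a single passing gene is common in this comparison. Fold changes also followed transcript length. The median log2 fold change was 0.51 over coding genes of 900 to 1100 nt, and -0.57 over those of 3079 to 3618 nt, the lengths that the class III HD-ZIP genes span. A fit that corrects for this trend (length correction) is given beside the fold changes of the 9 genes and of the pathway. The correction was fitted across all genes with a length, and 66.8% of genes passed with it, 32.3% higher and 34.5% lower. With it the medians of the 2 length classes above were -0.04 and -0.06, but the shortest coding genes were not centred, as given below. Pool levels, marker sums and CPM values are not corrected for the length trend. In RNA of whole embryos, fewer cells of a type and less RNA per cell cannot be told apart. The labels name no batch, and genotype cannot be told apart from any other difference between the pairs of libraries.

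Transcripts of neighbouring seed tissues were also present and differed between the genotypes. The summed level of 7 seed coat markers was 195 and 196 CPM in se-1 and 126 and 114 CPM in wild type, with 4 of them higher, 2 lower and 1 not passing. The 7 endosperm markers summed to 88.5 and 87.9 CPM in se-1 and 77.8 and 70.2 CPM in wild type. Of the 5 endosperm markers tested, 3 were higher and 2 lower, so their sum holds opposite changes. PHE1 was 7.45-fold, AGL62 2.25-fold and SUC5 1.71-fold higher in se-1, and FIS2 was 5.93-fold and ZOU 1.26-fold lower. IKU2, which was not tested, had 0 counts in both se-1 libraries and 4 and 5 counts in the wild-type libraries. The 7 embryo markers, all detected, summed to 1387.5 and 1369.6 CPM in se-1 and 1402.0 and 1478.5 CPM in wild type, with 4 higher, 2 lower and 1 not passing. For comparison, 36.2% of all tested genes were higher and 36% lower. The part of these tissues in the results below was not tested.

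Of the 9 genes, 2 were higher in se-1 (the precursors MIR165a and MIR166g), 3 were lower (PHB, REV and ATHB15) and 4 did not pass the test (PHV, ATHB8, ZPR1 and ZPR3). Among all tested genes 36.2% were higher and 36% lower. Since the 9 genes were chosen with earlier results of these data known, their counts are a description. After length correction 3 of the 9 genes were higher (MIR165a, MIR166g and PHV), and REV was the 1 gene of them that was lower. The shares over all genes were then 32.3% higher and 34.5% lower. The libraries of the genotypes did not overlap for 8 of the 9 genes, with ZPR1 the exception, where 85.5% of all tested genes did not overlap.

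**Figure D1:**
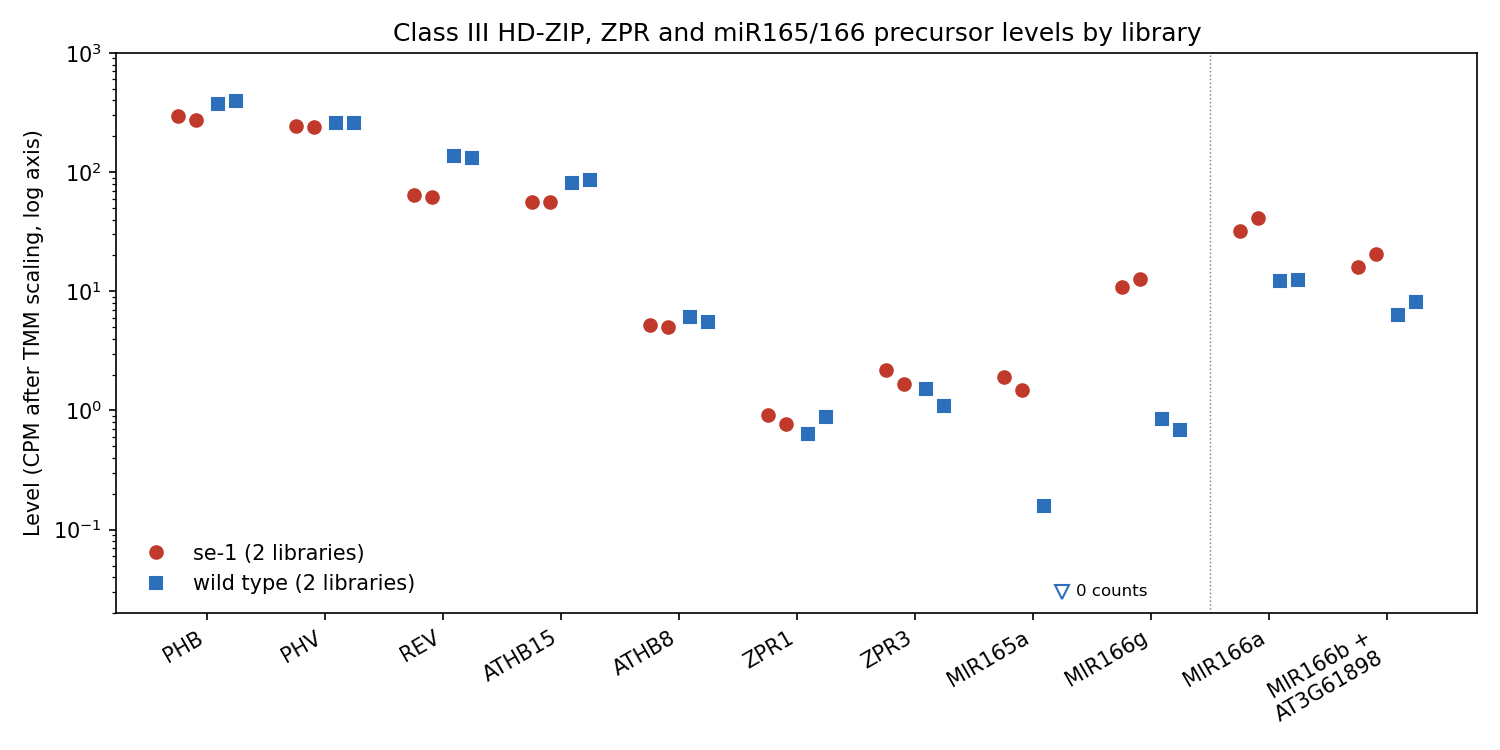
Level of each gene in every library, in CPM after TMM scaling on a log axis, with circles for se-1 and squares for wild type and 2 libraries each. The precursors MIR165a and MIR166g stand far above wild type in se-1, REV stands below it, and the open triangle marks the wild-type library in which MIR165a had 0 counts; right of the dotted line are MIR166a and the row that joins MIR166b with a neighbouring locus.

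MIR166g, a precursor gene of miR166, was 15.5-fold higher in se-1. It had 205 and 267 counts in the se-1 libraries and 16 and 13 counts in the wild-type libraries, or 11.0 and 12.8 CPM against 0.843 and 0.680 CPM. Both se-1 libraries lay far above both wild-type libraries. MIR166g had a log2 fold change of 3.96 (SE 0.21, edgeR adjusted p = 6.45e-12), or with length correction 3.02 (adjusted p = 3.07e-10). The ratio of summed counts scaled by library size was 15.7, with an exact 95% interval of 10.8 to 23.7 that covers counting error only.

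MIR165a, a precursor gene of miR165, was near the limit of detection in wild type. It had 36 and 31 counts in the se-1 libraries and 3 and 0 counts in the wild-type libraries, or 1.93 and 1.49 CPM against 0.158 and 0 CPM. No wild-type library came near either se-1 library, but the wild-type level rests on 3 reads in all. The ratio of counts was 21.5, and its exact 95% interval of 7.05 to 107 shows that the size of the difference is known only roughly. The fitted log2 fold change was 4.32 (SE 0.56, edgeR adjusted p = 1.48e-06), and with length correction it was 3.45 (adjusted p = 4.61e-05). Without wild-type replicate 1 the fitted value was 8.06, because the remaining wild-type library had no counts, and without wild-type replicate 2 it was 3.37, so the fitted size depends on single wild-type libraries. The intervals of MIR165a and MIR166g overlap, and the counts do not order the 2 precursors by fold change. The hairpin of MIR165a lies wholly within the annotated span of AT1G08765, a gene on the opposite strand with no row in the tables. The site search found no site of a score up to 4.0 in a transcript of AT1G08765. Whether an exon of that gene covers the hairpin was not determined. Without a stated strand setting reads of the pair cannot be told apart.

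The other loci of the family had fewer reads or a smaller change. MIR166a, the most abundant precursor with a row of its own, stood at 32.2 and 41.0 CPM in se-1 and at 12.3 and 12.3 CPM in wild type. It was 2.97-fold higher (log2 fold change 1.57, SE 0.12, edgeR adjusted p = 7.63e-10), and its log2 fold change was 0.52 after length correction (adjusted p = 5.2e-04). MIR166b was counted only in a row that joins it with AT3G61898, which stood at 16.1 and 20.6 CPM in se-1 and at 6.27 and 8.11 CPM in wild type (log2 fold change 1.35, edgeR adjusted p = 9.02e-08), and its reads cannot be assigned to either locus. MIR165b had 2 and 2 counts in se-1 and 0 and 1 counts in wild type, a ratio of 3.85 with an exact 95% interval of 0.381 to 190 that does not show a direction. MIR166c, MIR166d, MIR166e and MIR166f had 0 counts in all 4 libraries.

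The balance between the precursors also differed. MIR166g gave 0.341 and 0.312 counts per MIR166a count in the se-1 libraries and 0.0684 and 0.0551 in the wild-type libraries. This ratio was higher in both se-1 libraries, and with 2 libraries against 2 an exact permutation test cannot give a p below 0.333. Both hairpins are short, at 122 nt and 170 nt. Of the 224 MIR genes with a row, 33 could be tested, of which 29 were higher and 2 lower in se-1, with a median log2 fold change of 2.55, or 1.55 after length correction. MIR165a and MIR166g were above that median in both fits, and MIR166a was below it in both. Earlier results of these data were known when MIR165a and MIR166g were chosen, so their place above the median is a description only. The filter keeps a gene with enough reads in 2 libraries. MIR genes raised in se-1 could thus enter the test through that genotype alone, as MIR165a did. The counts and the median therefore describe a set chosen partly by its level in se-1. Of all tested genes, 36.2% were higher and 36% lower. Over the 52 coding genes of up to 300 nt, the nearest in length to the hairpins, the median was 0.06, and with length correction it was -0.96. The correction thus did not centre short coding genes. It was fitted with the MIR genes included, so the corrected values of the hairpins are not independent of their own change. Levels of mature miR165 and miR166 were not analysed here.

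REV, which acts in shoot meristem formation and in the patterning of leaves and vascular bundles, showed the largest fall among the 5 class III HD-ZIP genes. It stood at 63.8 and 61.9 CPM in se-1 and at 136 and 131 CPM in wild type, 2.13-fold lower. The replicates of each genotype were close to each other and the genotypes did not overlap. REV had a log2 fold change of -1.09 (SE 0.080, edgeR adjusted p = 7.9e-10). With length correction this value was -0.51 (adjusted p = 1.27e-05), and with GC content corrected as well it was -0.54 (adjusted p = 5.58e-06). REV overlaps 67 nt of AT5G60700 on the opposite strand. That gene had 91 and 114 counts in se-1 and 115 and 89 counts in wild type (log2 fold change -0.05, edgeR adjusted p = 0.805), far fewer than the 1191 and 1291 counts of REV in se-1 and the 2590 and 2509 in wild type.

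PHB and PHV are close paralogs with overlapping roles in adaxial fate and in embryo patterning. PHB stood at 293 and 275 CPM in se-1 and at 374 and 399 CPM in wild type, and was 1.36-fold lower (log2 fold change -0.44, SE 0.082, edgeR adjusted p = 9.52e-05). Both se-1 libraries lay below both wild-type libraries. This call was lost after length correction, with a log2 fold change of 0.02 (adjusted p = 0.818). PHV stood at 243 and 237 CPM in se-1 and at 258 and 260 CPM in wild type. The libraries did not overlap, but the log2 fold change of -0.11 (SE 0.079, 95% interval -0.26 to 0.04) did not pass the test (edgeR adjusted p = 0.218). After length correction PHV was higher in se-1, with a log2 fold change of 0.34 (adjusted p = 9.86e-04), or 0.19 where GC content was corrected as well (adjusted p = 0.0387). The direction for PHV thus depends on whether the length trend is removed. The longest run of identical bases between the transcripts of PHB and PHV was 64 nt, against 20 to 29 nt for the other 9 pairs of class III HD-ZIP genes. How reads within such a run were assigned is not given in the sources used here.

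ATHB15, also known as CORONA, acts in the shoot meristem and the vascular tissue. It stood at 56.1 and 56.4 CPM in se-1 and at 80.8 and 86.1 CPM in wild type, and was 1.48-fold lower (log2 fold change -0.57, SE 0.081, edgeR adjusted p = 4.91e-06). The se-1 libraries were nearly equal and both lay below wild type. This call was lost with length correction, at a log2 fold change of 0.03 (adjusted p = 0.794). ATHB8, a marker of the earliest vascular (procambial) cells, was the least abundant of the 5 genes. It stood at 5.19 and 4.98 CPM in se-1 and at 6.06 and 5.49 CPM in wild type, with a log2 fold change of -0.18 (SE 0.15, 95% interval -0.48 to 0.11) that did not pass (edgeR adjusted p = 0.287). After length correction the log2 fold change of ATHB8 was 0.29 (adjusted p = 0.103).

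Among the 873 protein-coding genes of 3079 to 3618 nt, 71.6% were lower and 8.82% higher in se-1, with quartiles of the log2 fold change at -0.93 and -0.20. REV lay below the lower quartile of this length class, with 16.7% of its genes at a lower log2 fold change. ATHB15 lay at the middle of the class (49.9% lower) and PHB slightly above it (60.6% lower). ATHB8 (76.1% lower) and PHV (80.3% lower) were above the upper quartile. The 5 class III HD-ZIP genes had a median log2 fold change of -0.44, or 0.03 after length correction. The median over all genes tested was 0.00, or -0.02 after length correction.

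**Figure D2:**
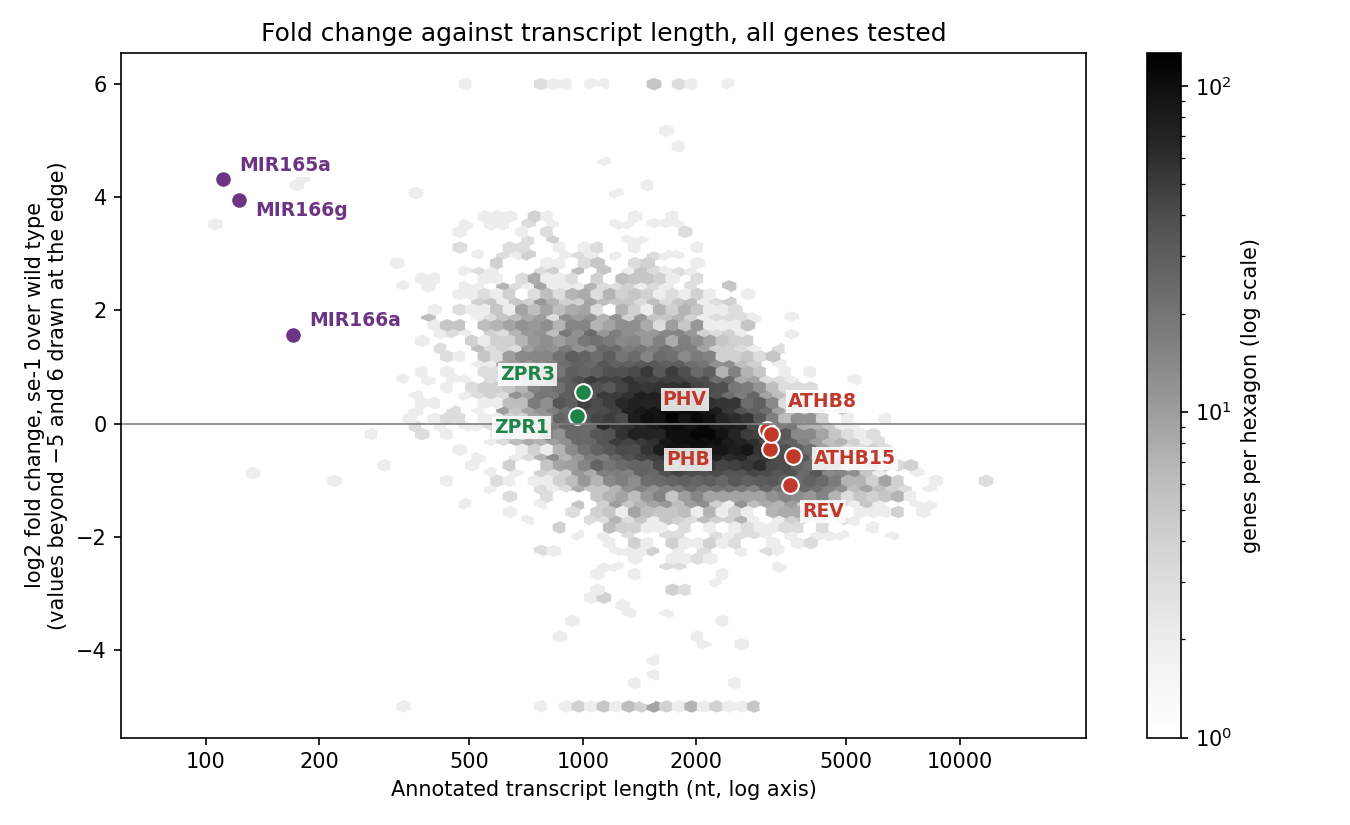
Log2 fold change of se-1 over wild type against annotated transcript length (log axis) for all genes tested with a length, as hexagons shaded by the number of genes, with the class III HD-ZIP genes in red, the ZPR genes in green and the MIR genes in purple. The 5 red points lie at 3079 to 3618 nt, where most genes are below 0, with REV the lowest at -1.09, while MIR165a and MIR166g stand near 4 at the short end.

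The level per kb of transcript (CPM per kb) gives an order of the genes within a genotype if reads scale with transcript length. That was not tested, and amplification from the poly(A) tail may depart from it. PHB averaged 90.4 ± 4.10 CPM per kb in se-1 and 123 ± 5.59 in wild type (SD, n = 2 libraries each, as in the following values). PHV averaged 78.0 ± 1.37 CPM per kb in se-1 and 84.2 ± 0.406 in wild type. REV averaged 17.7 ± 0.377 CPM per kb in se-1 and 37.8 ± 1.04 in wild type. These 3 genes kept this order in both genotypes, and each gap was wider than the spread between replicates. ATHB15 averaged 15.5 ± 0.0588 CPM per kb in se-1 and 23.1 ± 1.03 in wild type, so that REV and ATHB15 stood closer together in se-1. ATHB8 averaged 1.61 ± 0.0467 CPM per kb in se-1 and 1.83 ± 0.127 in wild type. ZPR3 averaged 1.93 ± 0.365 CPM per kb in se-1 and 1.31 ± 0.302 in wild type. In se-1 its difference from ATHB8 was smaller than the spread of ZPR3. Without division by length ATHB8 stood above ZPR3 in se-1, at a mean of 5.09 against 1.94 CPM. ZPR1 had the lowest level in both genotypes, at 0.867 ± 0.105 CPM per kb in se-1 and 0.787 ± 0.188 in wild type. The hairpins were left out of this order because only a part of each primary transcript is annotated.

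Summed over the 5 class III HD-ZIP genes, the pool stood at 207 and 199 CPM per kb in se-1 and at 265 and 274 CPM per kb in wild type, a ratio of 0.754. Both se-1 libraries were lower. These levels hold the length trend, and the pool was not recomputed without it. With length correction REV alone of the 5 genes was lower, while the log2 fold changes of PHB (0.02), PHV (0.34), ATHB15 (0.03) and ATHB8 (0.29) were above 0, so the lower pool was not shown to remain once the trend is removed. The makeup of the pool differed as well. REV held 8.67% and 8.77% of the pool in se-1 and 14.5% and 13.5% in wild type, a difference of -5.29 percentage points. PHV held 38.1% and 38.7% in se-1 and 31.6% and 30.9% in wild type, and so took a larger share. The shares of PHB overlapped, at 45.0% and 43.9% in se-1 and 44.8% and 46.3% in wild type. ATHB15 held 7.48% and 7.83% in se-1 and 8.41% and 8.69% in wild type, and ATHB8 held less than 1% in all libraries.

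**Figure D3:**
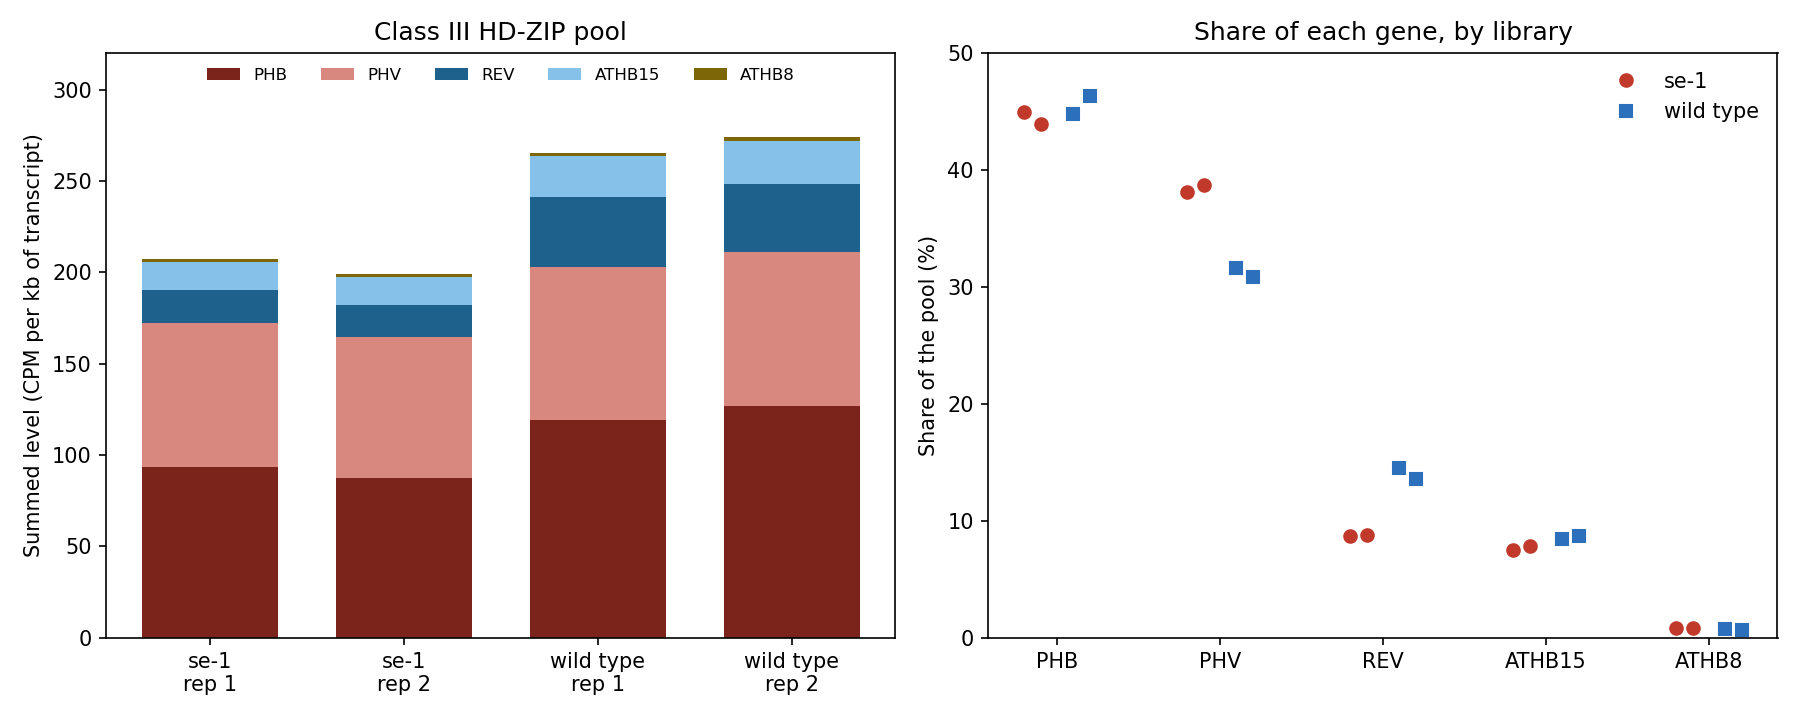
Left, summed CPM per kb of the 5 class III HD-ZIP genes in each library, stacked by gene; right, the share of each gene in the pool as a percentage, with circles for se-1 and squares for wild type. The se-1 bars reach 207 and 199 and the wild-type bars 265 and 274 CPM per kb, and the share of REV is lower and that of PHV higher in both se-1 libraries.

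Ratios between genes of 1 library do not depend on how that library was scaled, but they can hold the length trend. The mean log2 ratio of PHB to ATHB15 counts was 0.13 higher in se-1. With length correction the log2 fold changes of PHB and ATHB15 were nearly equal, at 0.02 and 0.03. REV gave 0.217 and 0.225 counts per PHB count in se-1 and 0.365 and 0.329 in wild type, and was thus lower relative to PHB in both se-1 libraries. Of the 10 pairs among the class III HD-ZIP genes, 9 had ratios that did not overlap between the genotypes, and the pair of PHV and ATHB8 did overlap. Among single genes, 85.5% of all tested did not overlap in CPM. The share over pairs of other genes was not computed, and the 10 pairs share genes. A count of this size was thus not shown to be particular to these pairs. With 2 libraries against 2 the smallest p of an exact permutation test is 0.333, so these ratios are given as a description.

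The tested genes whose pattern over the 4 libraries was closest to that of REV were AT1G61890, AT2G02570 and AT3G09190. The measure was the Euclidean distance between centred log2 CPM values, among 3601 genes with a mean CPM within 2-fold of that of REV, and the distances were 0.0215, 0.0317 and 0.0391. AT1G61890 stood at 46.7 and 45.3 CPM in se-1 and at 98.6 and 96.7 CPM in wild type. AT2G02570 stood at 55.5 and 54.4 CPM in se-1 and at 116 and 114 CPM in wild type. AT3G09190 stood at 124 and 118 CPM in se-1 and at 269 and 253 CPM in wild type. With 4 libraries in 2 groups, such likeness mostly reflects the same fold change.

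**Figure D4:**
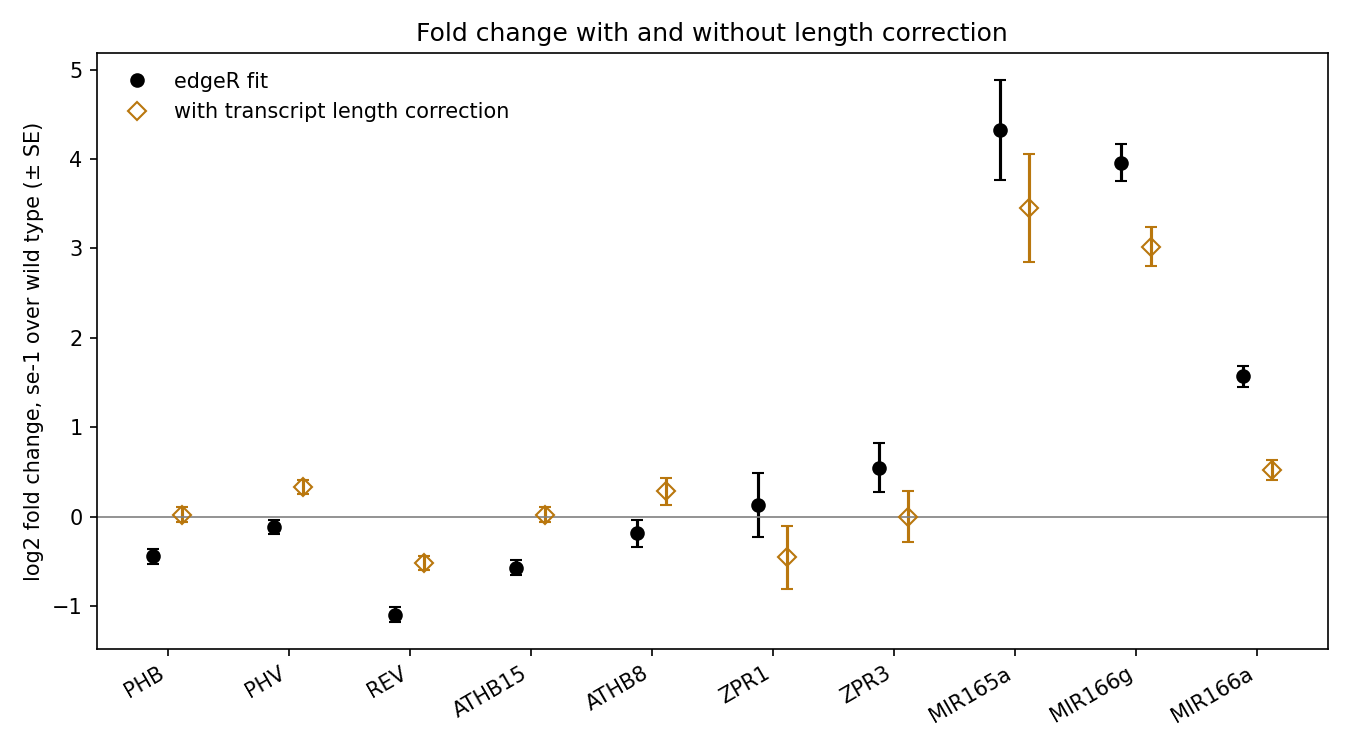
Log2 fold change of se-1 over wild type with its SE for the 9 genes and MIR166a, as filled circles from the edgeR fit and open diamonds from the fit with length correction. REV stays below 0 and the precursors stay above 0 in both fits, while PHB, PHV, ATHB15 and ATHB8 are above 0 in the corrected fit and below 0 in the other.

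The little zipper genes gave few reads. ZPR3 had 41 and 35 counts in se-1 and 29 and 21 counts in wild type, or 2.19 and 1.68 CPM against 1.53 and 1.10 CPM. Both se-1 libraries lay above both wild-type libraries by a small margin. The log2 fold change was 0.55 (SE 0.27) and did not pass the test (edgeR adjusted p = 0.0802). The count ratio was 1.46 with an exact 95% interval of 1.01 to 2.14. Without wild-type replicate 1 the log2 fold change of ZPR3 was 0.81 and passed (adjusted p = 0.0436), and after length correction it was 0.00 (adjusted p = 1.0).

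ZPR1 had 17 and 16 counts in se-1 and 12 and 17 counts in wild type, or 0.910 and 0.767 CPM against 0.632 and 0.889 CPM. Here the genotypes overlapped. The log2 fold change was 0.13 (SE 0.35, edgeR adjusted p = 0.753). Its 95% interval of -0.56 to 0.82 holds both a rise and a fall, so no direction was shown. The log2 fold change of ZPR1 was -0.09 without wild-type replicate 1 and -0.45 after length correction (adjusted p = 0.267). Among the 1520 protein-coding genes of 900 to 1100 nt, 58.5% were higher and 16.5% lower in se-1, and 32.2% of them had a lower log2 fold change than ZPR1 and 51.8% a lower one than ZPR3. Of the other little zipper genes, ZPR2 had 11 and 6 counts in se-1 and 8 and 1 counts in wild type, too few for the test, and ZPR4 was not analysed here.

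Genes that handle miR165 and miR166 were lower in se-1. AGO10, an ARGONAUTE that binds miR165 and miR166 and keeps them from AGO1, stood at 82.4 and 78.5 CPM in se-1 and at 145 and 130 CPM in wild type (log2 fold change -0.77, SE 0.084, edgeR adjusted p = 1.48e-07). AGO1, the main effector of microRNA-guided cleavage, stood at 488 and 500 CPM in se-1 and at 958 and 858 CPM in wild type (log2 fold change -0.88, SE 0.088, edgeR adjusted p = 4.84e-08). The log2 ratio of AGO10 to AGO1 counts was -2.57 and -2.67 in se-1 and -2.72 and -2.73 in wild type, slightly higher in both se-1 libraries. SDN1 and SDN2, nucleases that degrade mature microRNAs, had log2 fold changes of -0.99 (edgeR adjusted p = 1.31e-07) and -0.53 (adjusted p = 8.63e-06). All 4 genes of this list thus passed as lower, where 36% of all tested genes did, and 71.6% of the coding genes of 3079 to 3618 nt, the lengths around AGO1 (3615 nt) and just under AGO10 (3796 nt). After length correction AGO10 no longer passed (log2 fold change -0.14, adjusted p = 0.15), while AGO1 (-0.28), SDN1 (-1.14) and SDN2 (-0.59) remained lower.

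Of 10 genes known to act downstream of class III HD-ZIP proteins, 8 could be tested, and 4 were higher, 1 was lower and 3 did not pass. Of all tested genes, 36.2% were higher and 36% lower. The median log2 fold change of these 8 genes was 0.26, or 0.11 after length correction. TAA1, an enzyme of auxin synthesis whose gene is a target of REV, stood at 15.6 and 14.0 CPM in se-1 and at 7.85 and 10.8 CPM in wild type. The genotypes did not overlap, and the log2 fold change was 0.66 (SE 0.13, edgeR adjusted p = 2.3e-04), and with length correction it was 0.57 (adjusted p = 8.57e-04). The class II HD-ZIP genes HAT2 (log2 fold change 0.28, edgeR adjusted p = 0.0356) and ATHB4 (0.26, adjusted p = 0.0229) and the thermospermine synthase gene ACL5 (0.25, adjusted p = 0.0216), which ATHB8 activates, were slightly higher. BUD2, an S-adenosylmethionine decarboxylase that acts with ACL5, was lower (-0.51, edgeR adjusted p = 0.0293).

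The calls of HAT2, ATHB4, ACL5 and BUD2 did not hold with each library left out in turn. HAT2 did not pass without se-1 replicate 1 (log2 fold change 0.33, edgeR adjusted p = 0.0596), se-1 replicate 2 (0.22, adjusted p = 0.194) or wild-type replicate 1 (0.18, adjusted p = 0.269). ATHB4 did not pass without the same libraries (0.27, 0.25 and 0.15, with edgeR adjusted p of 0.0712, 0.0965 and 0.299). ACL5 did not pass without se-1 replicate 2 (0.18, edgeR adjusted p = 0.165) or wild-type replicate 1 (0.18, adjusted p = 0.19). BUD2 did not pass without se-1 replicate 2 (-0.37, edgeR adjusted p = 0.188), wild-type replicate 1 (-0.49, adjusted p = 0.0884) or wild-type replicate 2 (-0.52, adjusted p = 0.0665). None of these 4 genes passed in DESeq2, where the adjusted p ran from 0.0906 to 0.174. Among the genes that did not pass, HAT3 had a log2 fold change of -0.16 (edgeR adjusted p = 0.0991), or -0.24 without se-1 replicate 2 (adjusted p = 0.0317) and -0.29 after length correction (adjusted p = 0.00422). ATHB2 had 0.41 (edgeR adjusted p = 0.247) and the embryo regulator gene LEC2 had 0.14 (adjusted p = 0.418). The auxin synthesis gene YUC5 had 0 and 1 counts in se-1 and 2 and 1 in wild type, and the cytokinin synthesis gene IPT7 had 0 and 0 counts in se-1 and 1 and 0 in wild type. After length correction TAA1 was the 1 gene of this list that was higher, and HAT3 and BUD2 (-0.58, edgeR adjusted p = 0.0146) were lower. HAT2 (0.13), ATHB4 (0.09), ACL5 (0.18), ATHB2 (0.20) and LEC2 (-0.09) did not pass with it.

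Of the 5 upstream regulators and partners, 2 were higher, 2 were lower and 1 did not pass. The shares over all tested genes were 36.2% higher and 36% lower. DRN, an AP2-type factor that binds class III HD-ZIP proteins, stood at 7.23 and 5.70 CPM in se-1 and at 1.90 and 1.94 CPM in wild type. It was 3.35-fold higher (log2 fold change 1.75, SE 0.20, edgeR adjusted p = 2.38e-07), and still higher after length correction (1.45, adjusted p = 2.24e-06). Its relative DRNL had a log2 fold change of 0.24 (edgeR adjusted p = 0.0325) and the opposite sign after length correction (-0.30, adjusted p = 0.00997). DRNL did not pass without se-1 replicate 1 (0.26, adjusted p = 0.0676), se-1 replicate 2 (0.21, adjusted p = 0.138) or wild-type replicate 2 (0.13, adjusted p = 0.341) in edgeR.

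MP, the auxin response factor that activates ATHB8, stood at 163 and 152 CPM in se-1 and at 270.0 and 268 CPM in wild type (log2 fold change -0.77, SE 0.080, edgeR adjusted p = 8.64e-08), and it did not pass after length correction (-0.18, adjusted p = 0.0613). SHR and SCR are the factors that activate MIR165a and MIR166b in the root endodermis. SHR stood at 99.0 and 79.2 CPM in se-1 and at 104 and 105 CPM in wild type (log2 fold change -0.23, edgeR adjusted p = 0.0328), and se-1 replicate 2 was the lowest library. Its call was lost without se-1 replicate 2 (-0.08, edgeR adjusted p = 0.401), wild-type replicate 1 (-0.24, adjusted p = 0.0739) or wild-type replicate 2 (-0.23, adjusted p = 0.0766), and after length correction (-0.19, adjusted p = 0.0865). SHR did pass with the replicate block added to the length correction (-0.19, adjusted p = 0.041) and with length and GC correction (-0.33, adjusted p = 0.00334). SCR had a log2 fold change of -0.16 (edgeR adjusted p = 0.104), or -0.28 without se-1 replicate 2 (adjusted p = 0.019). Neither factor passed as higher in se-1 in either fit.

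KANADI genes promote abaxial fate and oppose class III HD-ZIP genes. KAN1 (log2 fold change -0.08, edgeR adjusted p = 0.632), KAN2 (-0.20, adjusted p = 0.116) and KAN4 (0.18, adjusted p = 0.235) did not pass, although KAN4 passed without wild-type replicate 2 (0.41, adjusted p = 0.0229). KAN3 was lower, with 16 and 18 counts in se-1 and 23 and 41 counts in wild type (log2 fold change -0.96, SE 0.33, edgeR adjusted p = 0.013). Its call was lost without se-1 replicate 1 (-0.96, edgeR adjusted p = 0.0736), se-1 replicate 2 (-0.97, adjusted p = 0.081) or wild-type replicate 2 (-0.49, adjusted p = 0.278). With length correction KAN3 was at -1.13 (edgeR adjusted p = 0.00441), and KAN1 (0.08), KAN2 (0.03) and KAN4 (-0.05) did not pass.

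**Figure D5:**
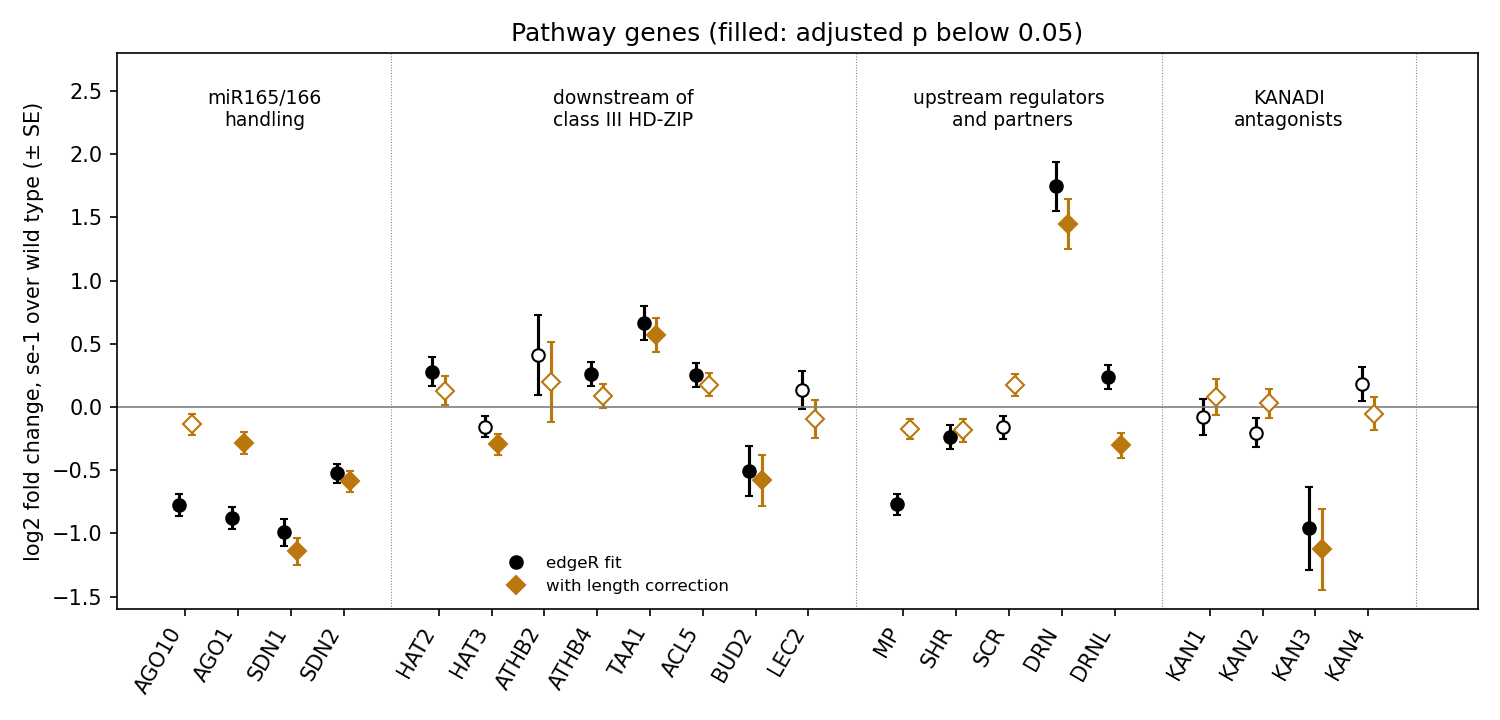
Log2 fold change of se-1 over wild type with its SE for tested genes of the pathway, as black circles from the edgeR fit and orange diamonds from the fit with length correction, filled where the adjusted p is below 0.05. DRN and TAA1 are higher and AGO1, SDN1, SDN2, BUD2 and KAN3 lower in both fits. HAT2, ATHB4, ACL5, AGO10, MP and SHR pass in the edgeR fit and not with the correction.

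Class IV HD-ZIP genes encode factors that also have a homeodomain, a leucine zipper and a START domain, and they are not targets of miR165 or miR166. Many of them, but not all, act in the epidermis. Over all tested genes 36.2% were higher and 36% lower, and with length correction 32.3% and 34.5%. Of the 15 class IV genes tested, 3 were higher, 9 were lower and 3 did not pass, with a median log2 fold change of -0.30. With length correction 7 passed as higher and 4 as lower (median 0.20). The most abundant were ATML1, at 321 and 297 CPM in se-1 and 536 and 558 CPM in wild type (log2 fold change -0.82, edgeR adjusted p = 5.9e-08), and PDF2, at 277 and 275 CPM in se-1 and 437 and 471 CPM in wild type (-0.72, adjusted p = 2.78e-07). After length correction ATML1 had a log2 fold change of -0.15 (edgeR adjusted p = 0.115) and PDF2 of -0.21 (adjusted p = 0.0291). The fall of PHB, REV and ATHB15 before length correction was therefore not shown to be particular to class III, and no test of the classes against each other was made.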

How the data were processed

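The authors deposited raw counts per gene, 1 table per library, with no normalization. Per the labels' protocols, RNA was isolated by RNAqueous-Micro, amplified by MessageAmp aRNA and turned into TruSeq RNA libraries. Amplification of this kind starts at the poly(A) tail and can change the level of long against short transcripts. HISAT2 2.0.5, featureCounts, Cufflinks 2.2.1, FastQC 0.11.5 and the TAIR10 build are listed, per the submitters' processing notes, with no role or order. For the annotation release, the strand setting and reads with several matches, the setting is not given in the sources used here. Of 27880 row identifiers, 27576 matched the TAIR10.1 RefSeq annotation, which gave lengths (longest annotated transcript), exons, overlaps and sequences. In 94 rows several loci are joined.

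Total counts were 18580516 and 20882004 in se-1 and 18894161 and 19362653 in wild type. Between replicates the chi-square of counts over its degrees of freedom was 5.87 in se-1 and 4.10 in wild type, above sampling noise, so each library counted as 1 replicate. Same-numbered libraries did not deviate together (correlation across genes 0.0263).

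Genes were tested in edgeR 4.0.16 (R 4.3.3; filterByExpr, TMM, quasi-likelihood F-test of genotype, two-sided, Benjamini-Hochberg adjustment over 18714 genes at 0.05). The SE is the absolute log2 fold change over the square root of F. Length correction adds a per-library offset from a spline (5 degrees of freedom) of log2 length, over 18529 genes. The fit was tested on simulated data. Alternatives were DESeq2 1.42.0 and its size factors, library size alone, limma-voom (limma 3.58.1), other filters, a replicate block, length with GC correction, and each library left out, where the library left alone is assumed to vary like those of the other genotype. The genes named are the 9 members, those of the gene lists of the pathway with a row, the 2 most abundant class IV genes and the 3 nearest to REV. The members and lists were chosen with earlier results of these data known. Count ratios carry exact 95% intervals, which cover counting error only, and 95% intervals of log2 fold changes are normal intervals from the SE.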

Additional observations from a re-analysis of the deposited data

How the results depend on the processing

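Removing the length trend changed the direction of 5 of the 9 genes. Of the 9 genes, 3 were lower as analysed, and 1 was lower with length correction, with length correction and the replicate block, and with length and GC correction. In that order of corrections the log2 fold changes were 0.023, 0.024 and -0.14 for PHB, 0.34, 0.34 and 0.19 for PHV, 0.026, 0.026 and 0.0057 for ATHB15, 0.29, 0.29 and 0.14 for ATHB8, and -0.45, -0.45 and -0.47 for ZPR1. REV, MIR165a and MIR166g kept their direction and passed under all 14 alternatives, with REV between -1.12 and -0.51, MIR165a between 3.37 and 8.06 and MIR166g between 2.99 and 4.12. Without the length corrections PHB, PHV, ATHB15 and ATHB8 kept their direction and their side of the threshold. With each library left out in turn, ZPR1 ranged from -0.088 to 0.40 and ZPR3 from 0.33 to 0.81, so that leaving out a library turned the sign of ZPR1 and not that of ZPR3.

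In the pathway lists, MIR166a and the class IV HD-ZIP genes included, genes that were higher numbered 10 as analysed, 6 with no filter, 6 in DESeq2 and 6 to 10 with libraries left out, and those lower numbered 17 as analysed and 11 with length correction. Class IV made up 3 of the higher and 9 of the lower genes as analysed, and 7 and 4 with length correction. Under the 3 corrections in the order above, the sign turned for LEC2 (-0.095, -0.093 and -0.065), SCR (0.17, 0.17 and 0.081), DRNL (-0.30, -0.30 and -0.49), KAN1 (0.077, 0.080 and 0.12) and KAN2 (0.029, 0.031 and 0.054). It also turned for KAN4 under the first 2 (-0.052 and -0.051) and for ATHB4 under the last (-0.0078). With libraries left out KAN1 ranged from -0.20 to 0.039 and KAN4 from -0.012 to 0.41. The cause of these changes was not tested. The replicate block, with 13683 genes changed against 13523, changed no call of the 9 genes; the samples share only a number. The pool ratio ran from 0.739 to 0.769 over other scalings, levels not divided by length and libraries left out, and it was not computed with length correction.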

Other observations

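The transcripts that came closest to the class III HD-ZIP genes in their match to miR165 and miR166 were those of HAF01 (AT1G32750), a histone acetyltransferase of the TAF1 family, and AT5G49250, both with a score of 3.0. The HAF01 stretch lies in exon 9 at chr1:11852653-11852673 on the minus strand (TAIR10.1), within the coding sequence, and is shown with the bases that face the seed in capitals.
HAF01: gggggatgaggcaTGGTTAGa

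HAF01 stood at 78.4 and 73.0 CPM in se-1 and at 103 and 102 CPM in wild type (log2 fold change -0.44, SE 0.081, edgeR adjusted p = 8.83e-05). After length correction its log2 fold change was 0.51 (adjusted p = 1.5e-05), and at 6190 nt it is longer than any class III HD-ZIP transcript. AT5G49250 had 0 counts in all 4 libraries. At a score of up to 4.0 the search found 24 loci, the 5 class III HD-ZIP genes included. HAF01 and AT5G49250 were chosen after the search, and a match of letters does not show that a site is used.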
